A study of Mus musculus with 14 samples.

Results

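The germinal centre B cells described here came from the spleens of 4 wild-type mice (WT) of genotype Crebbp+/+ Cg1-Cre, with 1 Affymetrix mouse genome expression array per mouse, out of 14 arrays in the study. The 4 arrays were chosen by their titles alone. WT 1, WT 2 and WT 3 came from females and WT 4 from the only male of the group. The other 10 arrays, used only for comparison, came from 5 heterozygous mice (HET, Crebbpfl/+ Cg1-Cre, 2 males) and 5 knockout mice (KO, Crebbpfl/fl Cg1-Cre, 3 males). All 14 mice carried Cg1-Cre, a Cre recombinase driven from the immunoglobulin gamma 1 constant region and so switched on in activated B cells, which means that the WT cells carried Cre without a floxed target. Animals on a mixed C57BL/6x129Sv background, aged 8 to 12 weeks, were immunised with sheep red blood cells (day 0, again on day 5) and killed on day 12. From each mouse, splenic B cells were enriched with a kit and sorted as B220+CD95+PNA+, and 25 ng of RNA was amplified before labelling. B220 is a form of the product of Ptprc and CD95 is the product of Fas, so a bright signal of these genes reflects the gate and is no finding.

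A germinal centre forms in a lymphoid follicle when B cells that met antigen receive help from T cells. In its dark zone the cells divide and mutate their antibody genes, and in its light zone they test the altered receptor on antigen and compete for T cell help. BCL6 is the transcriptional repressor that holds the state, and PRDM1 and XBP1 belong to the plasma cell program that ends it.

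Values are log2 intensities, so 1 unit is a doubling of array signal. Each gene was read from its brightest single-gene probe set, which gave 18193 genes. A gene was called high if it lay among the 10% with the highest mean over the 4 WT arrays, a bound of 11.61. It was called low if its mean was at or below 6.29, the 95th percentile of 113 chemosensory receptor and keratin-associated genes that B cells are not known to use (their median was 3.84 and their highest mean 7.07). By these bounds 1820 genes were high (10% of all), 8771 were middling (48.2%) and 7602 were low (41.8%). Just inside and outside the upper bound lay Ddb2 at 11.6084 and Tmx1 at 11.6074, and Tekt1 at 6.2927 and Epb41l1 at 6.2924 lay on either side of the lower bound. Probe sets bind with different strength, so a rank describes brightness on this array and not transcript number, and a low call means not above this bound, not absence. The 27 polyadenylated Bacillus control probe sets had means from 2.83 to 5.38.

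The 4 arrays were alike, except that WT 4 stood somewhat apart. Over the 10591 genes above background the median correlation with the other WT arrays was 0.987 for WT 4 and 0.994 to 0.995 for the other 3. WT 4 was the array farthest from the WT median for 49.8% of these genes, and its values over all probe sets were spread slightly wider, with quartiles of 4.72 and 9.18 against 4.83 to 4.87 and 9.05 to 9.09. The difference between the 3' and 5' control probe sets of Actb, a measure of RNA integrity, was 0.55, 0.54, 0.69 and 0.67 in WT 1 to WT 4, so it did not set WT 4 apart from WT 3. At most 28 probe sets held identical values in any pair of WT arrays. Crebbp, the gene targeted in the other groups, read 12.42, 12.40, 12.36 and 12.44 in WT, 12.10 to 12.43 in HET and 11.71 to 12.18 in KO, so the KO values did not overlap those of WT. The 4 arrays are from 4 separate mice, and their number limits the precision of every SD given here.

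The genes that define a germinal centre B cell were bright on all 4 arrays. Of the 14 measured genes of the germinal centre identity list, 10 were high (71.4%, against 10% of all genes), 4 were middling and 0 were low. Their median level was 12.34, and the count of high genes includes Fas, a gene of the sort gate.

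Bcl6 read 13.03, 12.97, 13.08 and 12.99 in WT 1 to WT 4, a mean of 13.02 ± 0.05 (SD, n = 4). Pou2af1, a B cell coactivator that germinal centre formation needs, read 13.23, 13.24, 13.24 and 13.16 (13.22 ± 0.04). S1pr2, the sphingosine 1-phosphate receptor that keeps cells inside the germinal centre, read 12.27, 12.28, 12.36 and 12.41 (12.33 ± 0.07), while its other probe set was at 7.28. For all 3 genes the 4 arrays lay within 0.15 units of each other. Gna13, the G protein subunit that carries the signal of S1pr2, was at 13.001 ± 0.046, and the Ezh2 methyltransferase, which represses cell cycle inhibitors and plasma cell genes in these cells, was at 12.51 ± 0.11. Fas, used in the sort, read 12.36, 12.27, 12.36 and 12.43. The regulator of G protein signalling Rgs13 was at 11.81 ± 0.05 and Mef2b, a transcription factor upstream of Bcl6, was middling at 11.31 ± 0.05.

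Mybl1, the proliferation factor A-Myb, was the member with the largest spread. It read 10.71, 10.70, 10.37 and 11.14 (10.73 ± 0.31), with WT 4 highest and WT 3 lowest. Efnb1, the ephrin B1 ligand of germinal centre cells, was the dimmest at 9.91 ± 0.11, and WT 1 at 9.75 lay below the other 3 arrays at 9.94 to 9.97. Beyond the genes that the naming rule gives, members are named in this and the following paragraphs for their role, and were chosen after their values were seen.

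**Figure D1:**
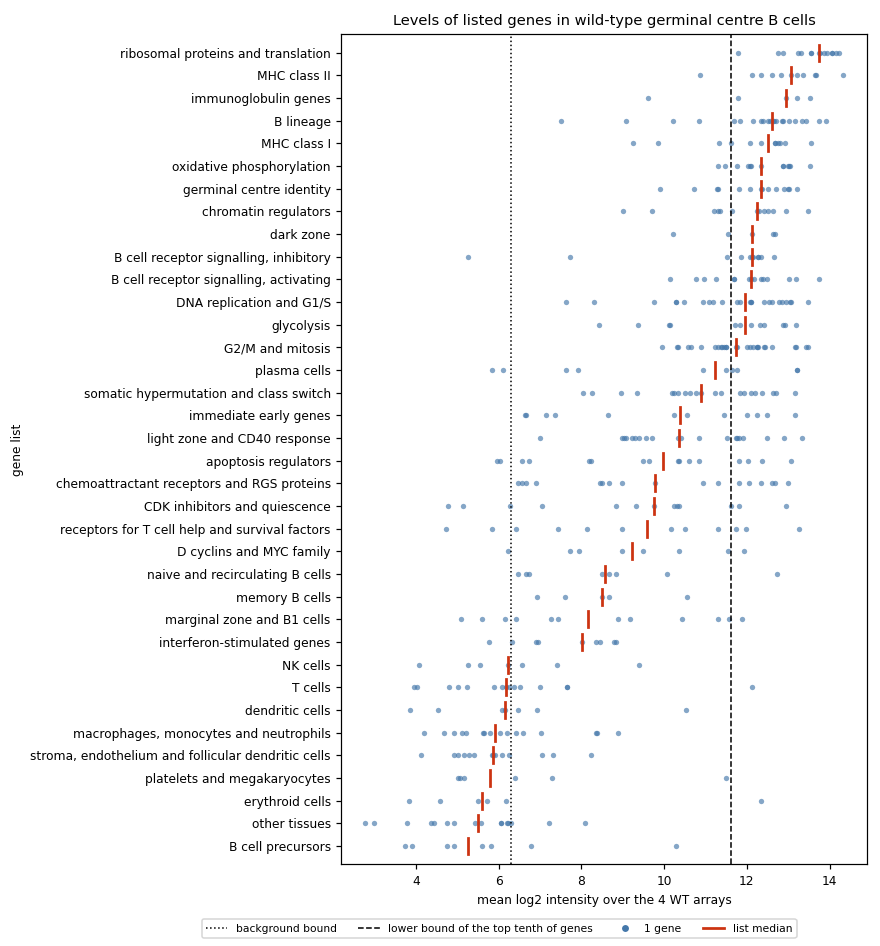
Each point is 1 gene placed by its mean log2 intensity over the 4 WT arrays, with 1 row per gene list, a red bar at the list median and the 2 bounds for low and high as vertical lines. Germinal centre identity genes lie around 12.34 and B lineage genes around 12.60, both right of the upper bound, while the medians for B cell precursors, T, NK, myeloid, dendritic, erythroid and platelet genes, stroma and other tissues, from 5.25 to 6.23, lie left of the lower bound.

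Among genes shared by most B cells 18 of 22 were high (81.8%), 4 middling and 0 low. The 22 include Ptprc, a gene of the sort gate. Cd79a and Cd79b, the signalling chains of the B cell receptor, were at 13.02 ± 0.03 and 13.74 ± 0.04. Ms4a1, which encodes CD20, read 13.39, 13.40, 13.51 and 13.37, and Cd24a, a surface glycoprotein, 13.95, 13.91, 13.95 and 13.81. Transcription factors of the lineage covered a wide range. Spib was at 13.32 ± 0.05, Bach2, a repressor of plasma cell differentiation, at 12.69 ± 0.06 and Ebf1 at 12.15 ± 0.06, whereas Spi1 (PU.1) was middling at 9.08 ± 0.18. Pax5, the factor that commits cells to the B lineage, was the dimmest of the list at 7.52, 7.35, 7.35 and 7.80 (7.50 ± 0.22), and its other probe set was dimmer at 6.98. All 4 arrays of Pax5 lay more than 1 unit above the lower bound.

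Genes of B cells outside the germinal centre were mostly middling. Of 8 genes of naive and recirculating cells, 1 was high and 7 were middling. The high one was Foxp1 at 12.72 ± 0.09, a forkhead repressor of the germinal centre program. Fcer2a, which encodes CD23, was at 10.06 ± 0.10, and Klf2, which drives expression of homing receptors, at 8.83 ± 0.23. The lymph node homing receptor Ccr7 read 6.47, 6.29, 6.37 and 6.79 and the egress receptor S1pr1 6.65, 6.53, 6.65 and 6.79, so both lay close to the lower bound on every array. Of 5 memory genes all were middling, from Cd80 at 6.94 ± 0.11 to Nt5e (CD73) at 10.56 ± 0.23. Nt5e differed between arrays, at 10.30, 10.50, 10.61 and 10.85, and the dimmest of its 3 probe sets was at 6.57.

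The plasma cell list was split. Mzb1 and Jchain, which serve antibody assembly and secretion, were high at 13.22 ± 0.06 and 13.20 ± 0.05, and so were Irf4 at 11.76 ± 0.16 and Ell2, an elongation factor for secretory antibody transcripts, at 11.63 ± 0.10. Xbp1 was middling at 10.94 ± 0.19. The master regulator Prdm1 (Blimp-1) read 7.46, 7.83, 7.51 and 7.76, and Sdc1 (CD138), the surface marker of plasma cells, 8.09, 8.14, 7.67 and 7.82. Tnfrsf17, the BCMA receptor of plasma cells, was low at 5.84 ± 0.28. In all, 4 of 10 members were high, 4 middling and 2 low.

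Of the 12 genes of marginal zone and B1 cells 1 was high, Notch2 at 11.88 ± 0.11, with its other probe set at 6.51. Cr2 (CD21) was just under the upper bound at 11.57 ± 0.11, and Cd5, a marker of B1 cells, was low at 5.61 ± 0.08. Genes of B cell precursors were low in 6 of 8 cases, including the recombinase genes Rag1 at 4.91 ± 0.21 and Rag2 at 3.75 ± 0.09. The other 2 were surrogate light chain genes, Vpreb1 at 6.79 ± 0.32 and Igll1. Igll1 was at 10.28 ± 0.14 on 1 probe set, while its other probe set had a mean of 6.23.

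Immunoglobulin genes with a single-gene probe set were bright. Ighm, the mu heavy chain, read 13.58, 13.68, 13.33 and 13.52. Ighg3 was at 12.94 ± 0.16 and Igha, the alpha chain, at 9.62 ± 0.18. Among genes outside the list, Igk and Igkv8-30, of the kappa light chain locus, were within the 50 brightest at 13.97 and 13.84. Heavy chain probe sets can share sequence between isotypes, and the 11 probe sets of Ighm ranged from 5.90 to 13.53.

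Both zones of the germinal centre were represented. Of 5 dark zone genes 3 were high and 2 middling. Cxcr4, the chemokine receptor that draws cells into the dark zone, read 12.67, 12.60, 12.74 and 12.70, and Foxo1, the factor that maintains that zone, 12.03, 12.05, 12.26 and 12.17. Polh, the error-prone polymerase eta, was at 12.63 ± 0.05, on a probe set marked as able to bind several transcripts. The dimmest of its 4 probe sets was at 6.14, below the lower bound, and the dimmest of 4 for Foxo1 at 6.85. Ccnd3, the D cyclin of dark zone division, read 11.36, 11.43, 11.45 and 11.95, and here WT 4 lay 0.50 above the next array.

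Of 20 genes of the light zone and of the response to CD40, 7 were high, 13 middling and 0 low. Cd83 was the most even of them, at 13.33, 13.34, 13.33 and 13.34. Cd86, a costimulatory ligand, read 11.91, 11.94, 11.72 and 11.65, and Nfkbia, an NF-kB target that feeds back on the pathway, was at 12.88 ± 0.07. The NF-kB subunit genes Rel, Relb and Nfkb2 were middling, at 9.22, 9.03 and 9.08. Myc, which marks the few light zone cells chosen to divide again, read 8.85, 8.86, 8.70 and 9.53 (8.98 ± 0.37), with WT 4 above the other 3. Nr4a1, an orphan nuclear receptor gene induced by antigen receptor signals, was the dimmest member at 6.88, 6.81, 6.97 and 7.37, again with WT 4 highest.

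Receptors for T cell help and survival factors ranged over most of the scale, with 3 of 12 high, 7 middling and 2 low. Tnfrsf13c, the BAFF receptor, was at 13.25 ± 0.08, Icosl, the ligand of ICOS on helper T cells, at 11.98 ± 0.05 and Cd40 at 11.74 ± 0.06. The other probe set of Icosl was at 6.73. The cytokine receptor genes Il4ra and Il21r were middling at 10.51 ± 0.11 and 10.17 ± 0.13. Il9r was low at 4.72 ± 0.17. Among 17 chemoattractant receptors and regulators of G protein signalling, 6 were high and 11 middling. Cxcr5, the receptor that brings cells to follicles, read 10.76, 10.86, 10.92 and 11.23. Rgs1, a regulator of chemokine signalling, was the only gene of this list with an SD above 0.5.

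Signalling genes of the B cell receptor were bright on both the activating and the inhibitory side. Of 15 activating genes 11 were high, 4 middling and 0 low, and of 11 inhibitory genes 8 were high, 2 middling and 1 low. The kinases Syk and Btk were at 12.04 ± 0.14 and 11.70 ± 0.09, the lipase Plcg2 at 12.17 ± 0.13 and the adaptor Grb2 at 13.19 ± 0.05. On the inhibitory side Ptpn6, the phosphatase SHP-1, read 12.26, 12.29, 12.28 and 12.23. Cd22, a sialic acid receptor that recruits it, was at 12.66 ± 0.08, and Fcgr2b, the inhibitory Fc receptor, at 12.28 ± 0.13. Lair1, a collagen receptor, was low at 5.25 ± 0.23.

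Antigen presentation genes were among the brightest and most even. Of 11 MHC class II genes 10 were high (90.9%) and 1, the transactivator Ciita at 10.87 ± 0.20, was middling. Cd74, the invariant chain that guards the peptide groove, read 14.34, 14.31, 14.32 and 14.31, rank 4 of all genes. H2-Ab1 was at 13.67 ± 0.03 and H2-Aa at 13.35 ± 0.05. Of 12 MHC class I genes 9 were high and 3 middling, led by B2m, the common light chain, at 13.55 ± 0.03. The trimming peptidase Erap1 was the dimmest at 9.25 ± 0.10.

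Of 21 measured genes for somatic hypermutation and class switching 8 were high and 13 middling. Rpa1, which binds single-stranded DNA, was at 13.17 ± 0.04, and Ung, the glycosylase that removes uracil, read 12.14, 12.24, 12.31 and 12.09. Msh6, a mismatch sensor, was at 12.36 ± 0.02. The end-joining gene Xrcc4 was at 8.27 ± 0.14 and Apex2, an endonuclease, at 8.04 ± 0.34, with 7.73, 7.88, 8.05 and 8.52.

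Read from their brightest probe sets, cell cycle genes were high or middling in every measured case. Of 24 genes of DNA replication and the G1/S step 14 were high and 10 middling. Of 28 genes of G2/M and mitosis 15 were high and 13 middling. So 0 of these 52 lay at or below the lower bound, against 41.8% of all genes. Of the 19 replication genes with several probe sets, 13 had a dimmer one at a lower level. The same held for 8 of the 20 mitotic genes with several. The replication clamp Pcna read 13.42, 13.45, 13.49 and 13.51, and the helicase subunit Mcm7 12.99, 13.07, 13.11 and 13.06. Mki67, the proliferation antigen Ki-67, read 13.35, 13.37, 13.45 and 13.50, and Top2a, a topoisomerase, 12.55, 12.59, 12.67 and 12.61. WT 1 was the lowest array for 16 of the 28 mitotic genes and 15 of the 24 replication genes. These shifts were small: the mean level of the mitotic list was 11.71 in WT 1 and 11.77 to 11.80 in the other 3. The dimmest members were Foxm1, a transcription factor of mitotic genes, at 9.96 ± 0.12, Orc1, an origin subunit, at 8.29 ± 0.33 and Tyms, thymidylate synthase, at 7.64 ± 0.15.

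Mitotic genes are known for promoters with CCAAT boxes and a CHR element, TTTGAA, bound by NF-Y and by the DREAM and MYB-MuvB complexes. RefSeq promoter windows of the build GRCm38.p6, 250 bases up to the start of the gene, were at hand for 23 of the 28 mitotic genes, in 24 windows. CCAAT was present in 21 of them (87.5%), against 33.8% of all 32851 windows, and TTTGAA in 11 (45.8%), against 16%. These windows are shown for 3 genes to let the spacing of the motifs be seen, and the capitals mark CCAAT, in either orientation, and the CHR element. They belong to Cdc20, the activator of the anaphase complex (chr4:118437344-118437593, minus strand, WT level 12.14 ± 0.05), Cdk1, the mitotic kinase (chr10:69352913-69353162, minus strand, 12.01 ± 0.08), and Mki67 (chr7:135716380-135716629, minus strand), each read 5' to 3' towards its start.
Cdc20: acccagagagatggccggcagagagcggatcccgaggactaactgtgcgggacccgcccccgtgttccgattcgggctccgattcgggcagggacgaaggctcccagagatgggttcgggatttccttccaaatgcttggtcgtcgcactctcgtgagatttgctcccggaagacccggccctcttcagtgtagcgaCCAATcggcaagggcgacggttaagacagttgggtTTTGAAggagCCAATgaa
Cdk1: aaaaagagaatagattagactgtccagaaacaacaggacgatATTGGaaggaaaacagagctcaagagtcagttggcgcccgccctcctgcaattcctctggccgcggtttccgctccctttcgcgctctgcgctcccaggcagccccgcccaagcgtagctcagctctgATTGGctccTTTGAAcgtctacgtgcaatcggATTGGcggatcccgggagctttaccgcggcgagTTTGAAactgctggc
Mki67: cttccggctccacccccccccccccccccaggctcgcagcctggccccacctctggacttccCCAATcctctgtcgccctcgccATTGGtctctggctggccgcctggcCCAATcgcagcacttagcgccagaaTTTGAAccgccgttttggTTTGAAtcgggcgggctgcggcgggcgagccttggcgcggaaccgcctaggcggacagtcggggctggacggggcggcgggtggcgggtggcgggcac
In Cdk1 the last TTTGAA begins at position -15 relative to the start and the nearest CCAAT, read on the opposite strand, at -48. In Cdc20 a TTTGAA begins at -18, with CCAAT at -53 and -8. In Mki67 the motifs lie farther out, with TTTGAA at -116 and -98 and CCAAT at -188, -166 and -141. Among the 19 replication genes with a window, CCAAT was present in 15 of 21 windows (71.4%) and TTTGAA in 2 (9.52%). High shares were not particular to cell cycle genes. CCAAT was in 77.8% of MHC class II windows and 72.7% of MHC class I windows. TTTGAA was in 3 of 6 windows of the stroma list (50%), 36.4% of those of naive B cells and the 1 immunoglobulin window. Most other lists were lower, such as 7.69% for CCAAT in the myeloid list and 0.0% for TTTGAA in MHC class II. A match in such a window is a description of its letters and not a bound site.

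Genes that drive entry into the cycle were mostly middling. Of 8 D cyclins, their kinases and MYC genes 1 was high, Cdk4 at 11.94 ± 0.03, 6 were middling and 1 was low. Ccnd2 read 9.32, 9.62, 9.76 and 9.25 and Ccnd1 8.14, 7.99, 8.02 and 7.67. Mycn was at 7.73 ± 0.27, with WT 4 lowest at 7.33, while Mycl was low at 6.22 ± 0.11. Of 13 inhibitors of cyclin-dependent kinases and quiescence genes 2 were high, 8 middling and 3 low. Cdkn1b, the inhibitor p27, was at 9.75 ± 0.05. Cdkn1a, the inhibitor p21 and a target of both p53 and BCL6, read 6.93, 6.95, 6.78 and 7.55, and Cdkn2b, p15, was low at 5.13 ± 0.45. The high members were the antiproliferative gene Btg1 at 12.95 ± 0.04 and the pocket protein gene Rbl1 at 11.80 ± 0.03.

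Among 16 apoptosis regulators 4 were high, 10 middling and 2 low. Mcl1, the survival factor that germinal centre cells depend on, read 13.08, 13.04, 13.10 and 13.02. Bcl2, another survival factor and one that BCL6 represses, read 7.15, 6.47, 6.91 and 6.45 (6.75 ± 0.34), and its 5 probe sets all lay between 6.19 and 6.75. The death effector genes Bcl2l11 (BIM) and Bid were high at 11.82 ± 0.17 and 12.03 ± 0.04, while Bik and Hrk were low at 6.03 ± 0.05 and 5.96 ± 0.14.

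Of 9 interferon-stimulated genes 0 were high, 8 middling and 1 low, with a median level of 8.01 against 7.16 for all genes. Irf7, the interferon response factor, was the brightest at 8.85 ± 0.08, Oasl2 was near the lower bound at 6.33 ± 0.24 and Ifit1 was low at 5.76 ± 0.21. Chromatin regulators were bright, with 8 of 13 high and 5 middling. The maintenance methyltransferase Dnmt1 was at 13.47 ± 0.05, its partner Uhrf1 at 12.95 ± 0.03 and the histone methyltransferase Kmt2d at 12.62 ± 0.07. Tet2, which oxidises methylcytosine, was the dimmest at 9.01 ± 0.21. In metabolism, 11 of 13 genes of oxidative phosphorylation and 8 of 12 of glycolysis were high. Ldha, lactate dehydrogenase, was at 12.86 ± 0.03 and Atp5a1, an ATP synthase subunit, at 13.52 ± 0.01, whereas Hk1, a hexokinase, was at 8.43 ± 0.13.

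The 20 brightest genes were mostly those of the ribosome. In falling order they were Rplp2, Tmsb10, Rpl41, Cd74, Rpl35, Rpsa, Rps3a1, Eef1a1, Tmsb4x, Rpl19, Rps28, Rpl6, Rpl13a, Rpl38, Rpl4, Rpl7a, Rps3, Naca, Rpl10a and Rps29, from 14.449 to 13.997. Of these, 15 have symbols starting with Rpl or Rps, as do 28 of the 50 brightest and 57 of all 18193 genes. Eef1a1 is a translation elongation factor, Naca binds nascent chains, and Tmsb10 and Tmsb4x encode thymosins, which bind actin monomers. Cd74 was the only one of the 20 that is specific to antigen-presenting cells. Behind rank 20 followed Cfl1 at 13.995, against 13.997 for Rps29. Among the 50 brightest, 34.0% were read from probe sets marked as able to bind several transcripts (suffix _x_at), against 3.47% of all genes. How much of their signal came from related sequences was not tested.

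Neighbours in the order of the top 20 were close. Rplp2 read 14.46, 14.47, 14.39 and 14.47, and Tmsb10 14.41, 14.45, 14.31 and 14.39, so their ranges overlapped. The SD of the 20 genes ran from 0.0066 to 0.0733, with a median of 0.0349, and Rpl7a, at 14.05, 14.05, 14.06 and 14.05, was the steadiest. All 50 were also the 50 brightest genes in HET and in KO. In limma fits across all tested genes, 0 of the 50 were called between KO and WT, where 2.44% of 10225 genes were called. Between HET and WT 0 of the 50 were called, where 0.0% of all were. At an unadjusted p under 0.05 the count was also 0 in both comparisons, against 13.1% of all tested genes for KO and 2.74% for HET, and the KO differences ran from -0.0958 to 0.1118. The 249 KO calls over all genes fell to 130 without WT 4, 144 without WT 1, 146 without WT 3 and 161 without WT 2. The 50 were ranked on the same WT arrays that these fits use, so their counts are a description. In both fits 48 of the 50 were read from the probe set used for the ranking. These genes lie near the top of the scale, where the brightest hybridisation control had a mean of 14.5985, and whether saturation narrowed their spread and differences was not tested.

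Spread between the 4 WT mice fell with brightness. The median SD was 0.0618 for high genes, 0.134 for middling genes and 0.161 for low genes. Of the 10591 genes above background, 98 (0.925%) had an SD above 0.5 and 19 an SD above 1. The 50 genes with the largest SD, chosen by that SD, ran from Xist at 3.48 to 1700019M22Rik at 0.629, with Acer2 next outside at 0.625. They were dimmer as a set, with a median level of 7.35. WT 4 was the array farthest from the median for 29 of the 50 (58.0%, 15 as the lowest and 14 as the highest), WT 3 for 13 (26%), WT 2 for 6 and WT 1 for 2. Over all genes above background WT 4 was farthest for 49.8% and WT 3 for 22.5%, so these shares were near the background. With WT 4 left out, 24 of the 50 stayed in the set.

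**Figure D2:**
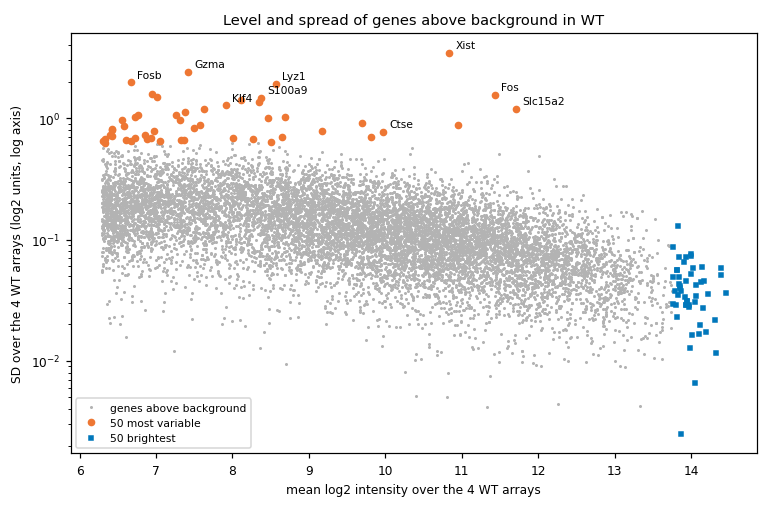
Each point is 1 gene above background, with its mean log2 intensity over the 4 WT arrays on the x axis and its SD in log2 units on a log y axis; orange points are the 50 most variable genes and blue squares the 50 brightest. The blue squares sit at means above 13.7 with SDs from 0.0025 to 0.129, and the orange points lie above 0.629 and mostly at means below 9.

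Xist, the RNA that silences one X chromosome in females, read 12.57, 12.56, 12.59 and 5.61 in WT 1 to WT 4, so it was high in the 3 females and below background in the male. Eif2s3y, a Y-linked gene, read 3.75, 3.64, 3.83 and 12.16. Both followed the labelled sex. To learn which other genes of the 50 follow sex, males were compared with females among the 10 HET and KO arrays, which had no part in the choice. Of 10216 genes tested there, 2 were called (0.0196%), Eif2s3y with a difference of 8.16 (SE 0.12, limma adjusted p = 6.1e-11) and Xist with -6.57 (SE 0.20, adjusted p = 6.2e-08). Of the 50 most variable WT genes 40 could be tested, and 1, Xist, was called. At an unadjusted p under 0.05 the count was 2 (5.00%), against 3.41% of all tested genes. With the 50 chosen without WT 4 the call was lost (0), and without any other WT array it was 2. WT 4 is the only WT male and Xist was even in the 3 females, so its loss without WT 4 was fixed by the design. In the HET and KO arrays Fos, for example, differed by 0.90 (SE 0.93, limma adjusted p = 0.943) between males and females. With the replicate number as a block it differed by -0.72.

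Of the 50 genes 3 were on the immediate early list, 2 on the NK cell list, 4 on the myeloid list, 1 on the list of chemoattractant receptors and RGS proteins and 1 on the sex-linked list, and 39 were on none. These lists are described with some genes outside them, placed beside them for their known role after their values were seen. Immediate early genes are transcribed within minutes of stimulation or stress. Fos, a subunit of the AP-1 factor, read 12.13, 12.12, 12.41 and 9.10. Its relative Fosb read 7.39, 7.36, 8.17 and 3.77, and Jun 8.80, 8.73, 9.36 and 7.69. In all 3 WT 4 was the lowest array, and for Fos and Fosb it lay over 3 units below the next.

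Klf4, a zinc finger factor, read 8.51, 8.18, 8.93 and 6.05 and the kinase gene Sik1, induced by cyclic AMP, 7.93, 8.01, 8.68 and 5.90. Ppp1r15a (GADD34), of the stress response, read 10.03, 9.96, 10.41 and 8.37. Again WT 4 was lowest and WT 3 highest. Of the 12 immediate early genes of the list, 8 were lowest in WT 4 and 7 were highest in WT 3. Other members varied less: Jund was at 13.16, 13.14, 13.17 and 13.13, Egr1 at 12.60, 12.45, 12.51 and 12.37. Junb went the other way, at 6.95, 7.13, 7.09 and 7.43. By level 4 of the 12 were high and 8 middling.

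**Figure D3:**
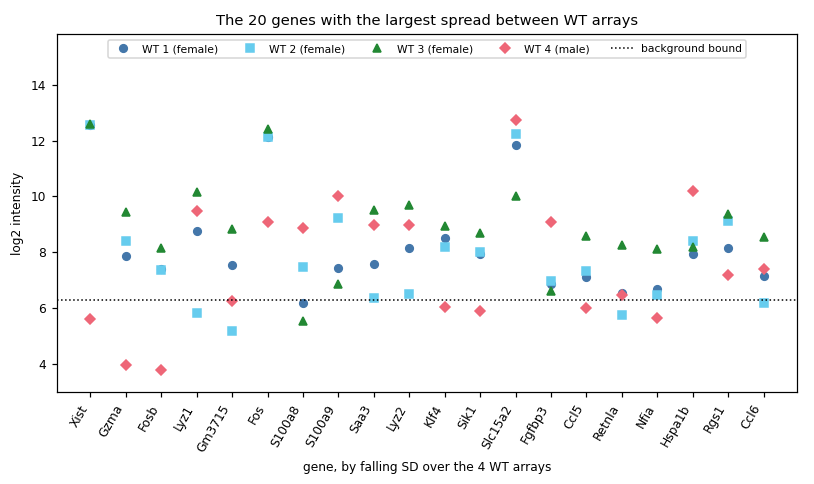
The 20 genes with the largest SD over the 4 WT arrays are placed along the x axis, and each symbol is the log2 intensity of 1 array, with the lower bound dotted. The diamond of WT 4, the male, lies far below the other 3 arrays for Xist (5.61), Gzma (3.95), Fosb (3.77) and Fos (9.10) and above them for Fgfbp3 (9.07) and Hspa1b (10.18).

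Fos and Fosb promoters are textbook cases of induction through cyclic AMP response elements, whose core is TGACG, and through the serum response factor. Of the 12 listed immediate early genes 10 had a RefSeq window, and 6 of the 10 held TGACG (60%), against 17.8% of all windows. This share was not particular to them. It was 66.7% for D cyclins and MYC genes, 54.5% for MHC class I, 47.4% for the light zone list and 29.2% for all high genes. Other lists were lower, down to 0.0% for activating B cell receptor signalling. The full palindrome TGACGTCA, which contains that core, was in 2 windows (20%) against 1.55%. The CArG box of the serum response factor was in 1 window (10%) against 1.47%, and in 21.1% of those of the light zone list. The AP-1 site TGANTCA was in 0 of 10 windows, against 6.75%, the octamer ATGCAAAT in 0, against 1.60%, and TATAAA in 10%, against 12.4%. All motifs were searched on both strands. The windows of Fos (chr12:85473640-85473889, plus strand) and Fosb (chr7:19310046-19310295, minus strand) are shown because these genes had the largest SDs of the immediate early list, with TGACG in capitals.
Fos: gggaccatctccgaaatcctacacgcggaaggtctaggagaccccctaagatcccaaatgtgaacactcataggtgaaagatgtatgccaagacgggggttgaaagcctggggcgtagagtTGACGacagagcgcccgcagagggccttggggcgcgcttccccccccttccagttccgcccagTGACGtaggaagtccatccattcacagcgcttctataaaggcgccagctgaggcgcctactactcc
Fosb: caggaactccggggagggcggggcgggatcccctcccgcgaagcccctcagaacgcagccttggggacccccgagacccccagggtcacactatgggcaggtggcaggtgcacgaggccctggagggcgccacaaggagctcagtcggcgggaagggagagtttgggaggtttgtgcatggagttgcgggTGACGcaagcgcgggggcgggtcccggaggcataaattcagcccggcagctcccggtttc
In Fos the core begins at positions -129 and -66 relative to the start, and in Fosb at -60. Neither window held the full palindrome or a CArG box, and bases farther out were not searched. Over the 50 most variable genes as a set, 12 of 46 windows held TGACG (26.1%) and 17 of 51 of the 50 brightest (33.3%).

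Genes of cytotoxic lymphocytes were also among the 50. Gzma, the protease granzyme A, read 7.88, 8.41, 9.45 and 3.95. Nkg7, of cytotoxic granules, read 6.81, 6.90, 7.35 and 5.16, and Ccl5, a chemokine of T and NK cells, 7.13, 7.34, 8.57 and 5.99. WT 3 was highest and WT 4 lowest in each. In sorted cells taken as a bulk, fewer cells of a type and less RNA per cell cannot be told apart.

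Of the 7 measured NK cell genes 3 were above background, Prf1, Gzma and Nkg7, and 4 were low, including the defining receptor Ncr1 at 4.16, 4.20, 4.78 and 3.19. The summed signal of the list on the linear scale was 1195, 1309, 1878 and 811 in WT 1 to WT 4, with 681 to 1337 in HET and 792 to 1962 in KO. Of the 7 genes 6 were highest in WT 3 and 6 lowest in WT 4. Prf1, the pore protein perforin, did not follow, at 9.36, 9.38, 9.43 and 9.37, and was read from 1 of 2 probe sets, the other being at 5.50. Whether NK cells in the sort had a part in these differences was not tested.

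T cell markers were mostly low, and 0 of them had an SD above 0.5. Of 15 measured genes 1 was high, 5 middling and 9 low. The T cell receptor chain Cd3e was just above the bound at 6.65, 6.47, 6.41 and 6.57, Cd4 was low at 5.88 ± 0.10 and Cd28 low at 4.03 ± 0.31. The high member was Cd2, an adhesion receptor, at 12.12 ± 0.08. Il21, the helper cytokine, was low at 3.96 ± 0.17.

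In several genes of macrophages, monocytes and neutrophils the arrays took another order. Lyz2, the lysozyme of myeloid cells, read 8.17, 6.52, 9.71 and 8.98, and its neighbour Lyz1 8.78, 5.82, 10.17 and 9.49, while the acute phase gene Saa3 read 7.60, 6.37, 9.53 and 8.97. For these 3 genes WT 3 was highest and WT 2 lowest. The neutrophil genes S100a8, at 6.18, 7.49, 5.52 and 8.88, and S100a9, at 7.42, 9.21, 6.86 and 10.01, were instead highest in WT 4 and lowest in WT 3.

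Of the 16 genes of the myeloid list 0 were high, 6 middling and 10 low, the low ones including Csf1r at 6.20 ± 0.17 and Itgam at 4.21 ± 0.17. The summed linear signal was 1615, 1920, 2152 and 3202, with WT 4 highest. In HET it ran from 1637 to 2931 and in KO from 1607 to 2813. Whether myeloid cells in the sort had a part in these differences was not tested. Lyz1 and Lyz2 are near-identical copies, so their probe sets may share signal.

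The remaining lists of other cells were mostly low. Of 14 genes of stroma, endothelium and follicular dendritic cells 11 were low, and of 16 genes of other tissues 14. Among 7 dendritic cell genes 4 were low and Flt3 stood out at 10.52 ± 0.09. Among 6 platelet genes 3 were low and the integrin Itgb3 was at 11.50 ± 0.03 on 1 of its 2 probe sets, the other reading 6.73. Of 6 erythroid genes 5 were low and Hba-a2 was high at 12.35 ± 0.07, while Hba-a1, the gene of a near-identical globin chain, was low at 4.57 ± 0.18 and the heme enzyme gene Alas2 at 3.83 ± 0.20. Prm1, a sperm protamine, and Krt5, a keratin, were the 2 members of the other tissues list above background, at 8.08 ± 0.25 and 7.22 ± 0.28.

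Most of the variable genes belonged to no list. Slc15a2, a peptide transporter, was the only one of the 20 most variable genes that was high, and read 11.83, 12.25, 10.01 and 12.75. Over all 14 arrays its values fell into separate ranges, 9.39 to 10.01 in WT 3, HET 3, HET 5, KO 2 and KO 4 and 11.83 to 12.75 in the other 9, with none between. The step therefore occurred in each genotype. Its other probe sets were dim, at 5.73 and 5.65. Ctse, an endosomal protease, read 10.21, 8.83, 10.54 and 10.30, and the other 10 arrays lay between 10.23 and 10.62, so only WT 2 was apart. Hspa1b, a heat shock protein, read 7.95, 8.41, 8.20 and 10.18, and Fgfbp3, which binds fibroblast growth factors, 6.88, 6.98, 6.61 and 9.07, both highest in WT 4.

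The genes that varied among WT mice also varied in the other genotypes. Of the 50, 47 lay in the 10% of genes with the largest SD in HET (94.0%) and 44 in that of KO (88.0%), 42 in both and 1 in neither. The 50 genes with the largest SD in HET shared 33 with the WT set and those in KO 21. Their median SD was 0.998 in HET and 0.701 in KO, where the median of all genes above background was 0.125 and 0.164.

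**Figure D4:**
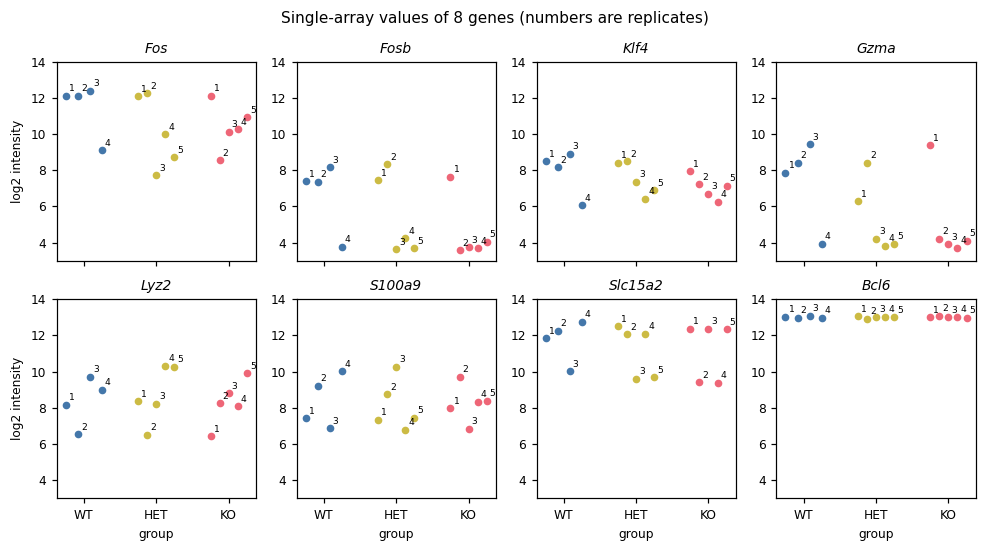
Each panel plots the log2 intensity of 1 gene in all 14 arrays, by group, with the replicate number beside each point. Fos, Fosb and Gzma are high in WT 1, WT 2, WT 3, HET 1, HET 2 and KO 1 and lower in the other 8, Slc15a2 shows a step in each group, and Bcl6 lies between 12.92 and 13.08 in all arrays.

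Fos, Fosb and Gzma split the 14 arrays in the same way. Egr1, Jund and Nkg7 of the same lists did so too, by narrow gaps of 0.0385, 0.017 and 0.0764. Other members, such as Jun and Prf1, did not. For Fos the 6 highest arrays were WT 1, WT 2, WT 3, HET 1, HET 2 and KO 1, at 12.10 to 12.41, against 7.73 to 10.93 in the other 8. Fosb was at 7.36 to 8.32 in the same 6 arrays and at 3.58 to 4.23 in the other 8, and Gzma at 6.29 to 9.45 and at 3.70 to 4.20. The mean of the immediate early list, with Fos and Fosb in it, was 9.94 to 10.21 and 8.89 to 9.46. That of the NK cell list, with Gzma in it, was 5.91 to 7.33 and 5.12 to 5.57. The identical 6 arrays were the highest for 44 genes above background (0.415%) and for 9 of the 50 most variable (18%), namely Gzma, Fosb, Fos, Klf4, Sik1, Ccl5, Rgs1, Nkg7 and Ppp1r15a. For 31 genes (0.293%) they were the 6 lowest, and 3 of the 50 were among these. The 6 arrays were taken from Fos, which is 1 of the 9. The 50 were chosen by their spread in WT, where WT 4 was most often the array farthest out. The share of 18% therefore follows in part from that choice and is a description. The 6 arrays come from all 3 genotypes and both sexes. This grouping was noticed in the data, no label gives a date or batch for the arrays, and it was not tested. WT 4 was the only WT array outside it, so within WT a difference between WT 4 and the other 3 and one that follows this grouping or sex cannot be told apart.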

How the data were processed

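Germinal centre B cells of 4 WT, 5 HET and 5 KO mice were measured on 14 arrays. Each array was deposited as log2 intensity for every probe set. The submitters' processing notes name RMA, which corrects background, normalises by quantiles and summarises probes; no version was given in the sources used here. Such normalisation hides a shift shared by most genes, and no detection calls were used here.

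Of 45101 probe sets 64 are controls, 34945 name 1 gene, 932 several and 9160 were unnamed here. By Entrez number, 34741 matched a RefSeq gene (GRCm38.p6), and 0 symbols differed. The probe set with the highest WT mean stood for each gene, and 9010 genes had several. The 37 lists name 484 genes, of which 432 were measured, 52 have no single-gene probe set (16 of these share probe sets with other genes). The 4 arrays were taken by title, and the members and lists were chosen with earlier results of these data known.

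Genes were named by rule: the 20 brightest, the 20 with the largest SD among genes above background, the first 3 of each list, and its 2 brightest and 2 dimmest. KO and HET were compared with WT with limma 3.58.1 under R 4.3.3 (linear model with moderated variance, group and sex as terms, all 14 arrays, 1 probe set per gene with the highest mean over the arrays fitted, above the median of non-control probe sets, 6.43), with Benjamini-Hochberg adjustment and a threshold of 0.05. Sex was tested in the HET and KO arrays alone. On simulated data with 200 changed genes the KO fit recovered 65% of changes of 0.5 and 94% of changes of 1, with 6 false calls among 165. False calls were 12 among 173 for the HET fit and 10 among 165 for the sex fit. The simulated noise was independent between genes and arrays. Likeness between particular arrays was therefore left out, and these figures do not cover its effect. Levels and motifs were computed in Python 3.11.15. Alternatives covered bounds, probe set choice, scaling, filters, measures of spread, the replicate number as a block and leaving out each array.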

Additional observations from a re-analysis of the deposited data

Results flagged for a closer look

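Among 232 named genes, 18 (7.76%) had 1 WT array set apart from the other 3 by Dixon's criterion for 4 values, which flags about 1 in 20 groups by chance. The share was 7.58% over all 10591 genes above background (803 genes), of which WT 4 was apart in 65.4%. The named genes include 20 chosen for their spread over the same arrays and the sex-linked genes, so their share is a description. WT 4 was the array apart in 13 of them, WT 3 in 4 and WT 1 in 1.

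For 5 of the 18 the range over the 4 arrays exceeded 1 log2 unit, and WT 4 was apart in all 5. Xist was 5.61 in WT 4 against 12.56 to 12.59 in the others, Eif2s3y 12.16 against 3.64 to 3.83, and the Y-linked demethylase gene Kdm5d 7.60 against 4.94 to 5.01, as the labelled sex has it. Fos was 9.10 against 12.12 to 12.41 and Fgfbp3 9.07 against 6.61 to 6.98.

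The other ranges were under 1 unit. WT 4 was highest for Ccnd3 (11.95 against 11.36 to 11.45), Orc1 (8.79 against 8.07 to 8.19), Hdac3 (9.94 against 9.62 to 9.65) and Foxp3 (7.89 against 7.57 to 7.60). It was lowest for Pou2af1 (13.16 against 13.23 to 13.24), Mycn (7.33 against 7.83 to 7.92), Itga2b (6.04 against 6.49 to 6.57) and Pdgfrb (6.99 against 7.38 to 7.43). WT 3 was highest for Rps3a1 (14.22 against 14.19) and Ncl (12.95 against 12.68 to 12.72) and lowest for Rps29 (13.89 against 14.02 to 14.04) and Ndufa4 (11.63 against 11.81 to 11.83). WT 1 was lowest for Efnb1 (9.75 against 9.94 to 9.97).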

How the results depend on the processing

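The count of genes above background stayed within 1.5 times its value under every alternative run. Taking the mean of all probe sets of a gene in place of the brightest moved 2431 genes, 35 of the 232 named, to another level and kept 14 of the 20 brightest. The other choices of probe set, scaling or array moved at most 3 named genes and kept 19 or 20 of the brightest. The count of high members moved by more than 1.5 times in 15 of 37 lists with the brightest 5% as high, in 6 with the brightest 20%, in 4 with the mean of probe sets and in 1 without WT 4.

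The set of 50 most variable genes depended on WT 4: without it 24 of the 50 (48.0%) were kept, without WT 3, 35, without WT 2, 41, and without WT 1, 44. By the median absolute deviation 28 were kept. The 1 sex call among the 50 became 0 by that measure. With a WT array left out it was 0 to 2, being 0 without WT 4 and 2 without WT 1, WT 2 or WT 3. As WT 4 is the only WT male, the loss of Xist without it was fixed by the design. Over all genes the sex calls were 0 with a filter at the 75th percentile, 4 with no filter and 5 over all single-gene probe sets, against 2.

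KO against WT gave 117 calls with that stricter filter, which tests fewer genes, and 130 to 259 with 1 array left out, against 249. It gave 144 without WT 1, 161 without WT 2, 146 without WT 3 and 130 without WT 4. Replicate numbers are shared between groups, and 9 of 13 same-numbered pairs had deviations correlated above 0.1 (from -0.175 to 0.383). Their median correlation was 0.142, against -0.056 for differently numbered pairs, so arrays of the same number were somewhat alike. The main fits did not take them as pairs. With the replicate number as a block the calls were 198 for KO, 1 for HET against 0 without it, and 2 for sex, and the sex difference of Fos turned to -0.72 from 0.90, neither of which was called; the cause was not tested. Spread over 4 arrays is poorly estimated, and dim genes near the bound cannot be told from background.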
